A study of Mus musculus with 12 samples.

Results

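The genes described here encode the contents and the coat of the cytotoxic granule: the granzymes Gzma, Gzmb, Gzmk and Gzmm, perforin (Prf1), the granule scaffold serglycin (Srgn), the granule membrane protein Lamp1 and the granzyme B inhibitor Serpinb9. Every probe set annotated to 1 of these 8 genes was taken, whatever its signal, which gave 10 of the 45101 probe sets on the array (Prf1 and Serpinb9 have 2 each). The 12 Affymetrix mouse arrays measured total RNA from regulatory T cells (Tregs) sorted by flow cytometry and used fresh, without treatment. There are 3 arrays of each of 4 genotypes, namely wild type (WT), knockout of Ebi3 (Ebi3_KO), knockout of Il10 (Il10_KO) and knockout of both (DKO). Each array carries a batch label of 1, 2 or 3 that is also its replicate number, and all 4 genotypes are present once in a batch. Strain, age, sex and the targeted alleles are not in the labels, nor is it stated that replicates came from separate animals, so p-values measure the spread between these samples, which may be technical.

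Cytotoxic lymphocytes store granzymes, which are serine proteases, with perforin in secretory lysosomes. On contact with a target cell the granule is released, perforin opens the target's membrane and granzymes enter and cleave proteins there. Natural killer (NK) cells and effector CD8 T cells are the main carriers of these granules, and activated Tregs can use granzyme B and perforin to restrain or kill other immune cells. Ebi3 is a subunit of IL-35 and of IL-27, and the series compares Tregs without that subunit, without IL-10 and without both.

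The sequences before the start sites of Gzmb, Gzma and Serpinb9 are shown because these 3 genes have the contrasting patterns described in what follows. Gzmb varied widely between the arrays of WT and of Ebi3_KO, whereas Gzma and Serpinb9 moved with the batch. Each window holds the 250 bases before a RefSeq start site (GRCm38.p6), read 5′ to 3′ along the gene; all 8 genes were matched in that table. For Serpinb9 the start site is that of a transcript which begins inside the annotated gene. Capitals mark matches, on either strand, to AP-1 (TGANTCA), Runx (TGTGGT) or Prdm1 (AGNGAAAG) motifs.
Gzmb, chr14:56262335-56262584, minus strand: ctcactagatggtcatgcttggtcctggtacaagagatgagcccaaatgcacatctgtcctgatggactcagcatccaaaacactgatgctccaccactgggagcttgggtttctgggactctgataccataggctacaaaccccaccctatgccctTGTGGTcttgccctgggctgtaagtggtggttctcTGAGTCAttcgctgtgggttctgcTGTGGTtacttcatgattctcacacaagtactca
Gzma, chr13:113100982-113101231, minus strand: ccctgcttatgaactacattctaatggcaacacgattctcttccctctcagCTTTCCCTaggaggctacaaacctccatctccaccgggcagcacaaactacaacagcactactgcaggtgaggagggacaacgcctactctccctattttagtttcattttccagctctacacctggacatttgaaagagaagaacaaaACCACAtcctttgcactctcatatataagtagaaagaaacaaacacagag
Serpinb9, chr13:33004291-33004540, plus strand: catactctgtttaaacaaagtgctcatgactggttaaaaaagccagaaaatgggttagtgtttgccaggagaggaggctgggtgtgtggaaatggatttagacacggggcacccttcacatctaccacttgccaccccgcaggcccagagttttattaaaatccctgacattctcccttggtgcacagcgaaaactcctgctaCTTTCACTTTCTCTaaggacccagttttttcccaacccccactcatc
The Gzmb window held 1 AP-1 match at 58 to 52 bases before the start site and 2 Runx matches at 93 to 88 and 34 to 29 bases before it. The Gzma window held a Runx match at 50 to 45 bases and a Prdm1 match at 199 to 192 bases before the start site. In the Serpinb9 window 2 Prdm1 matches overlapped, at 47 to 40 and 41 to 34 bases before the start site. Of 32851 mouse windows of this length 6.7% held the AP-1 letters, 14.0% the Runx letters and 7.3% the Prdm1 letters, so matches of this kind are not rare. The CRE core (GACGTCA), searched likewise and held by 2.8% of the windows, was not among the letters of these 3 windows. The Gzmb window held no Prdm1 match. Runx matches also lay in a window of each of Lamp1, Prf1, Srgn and Gzmm, which are not shown. Any relation of the matches to the signals was not tested.

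Values are MAS5 signals in arbitrary units, scaled by the authors so that the trimmed mean of each array is 500. Differences are on the log2(signal + 20) scale with their standard error (SE), which understates the change of dim probe sets, and signals of different probe sets cannot be ranked against each other. The 12 arrays carried the markers of Tregs: all 9 of the measured Treg and T cell genes were tested, and Foxp3, the transcription factor that defines Tregs, read 4945.3 to 7955 on all arrays. The Ebi3 probe set read 1062.5 to 2057.3 in WT and Il10_KO and 3 to 72.5 in Ebi3_KO and DKO. The Il10 probe set read 184.5 to 2939.8 in WT and 1016.7 to 2639.6 in Il10_KO and DKO, so it does not check the Il10 label, and every direction given for Il10_KO or DKO rests on the label. The 4 arrays of batch 3 stood apart in markers of NK and myeloid cells: the summed signal of 11 NK cell genes was 7035.6 to 13245.1 there, against 1206 to 2966.6 on the other arrays, and that of 13 myeloid genes was 49787.9 to 78954.3, against 6384.8 to 14649.5. Most of the NK sum in batch 3 came from Tyrobp and Fcer1g, adaptors that myeloid and mast cells also use. Without these, in a sum chosen after the values were seen, the other 9 genes gave 1979.7 to 4246.8 in batch 3 and 549.7 to 1405.8 elsewhere.

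Gzmb, the granzyme that activates caspases in target cells and the one best known in Tregs, was read by 1 probe set and was above the 40th percentile of the array on all 12 arrays. Its signal was 3066.5, 2168.8 and 1071.9 on the WT arrays of batches 1, 2 and 3. It was 594.2, 871 and 2129.3 in Ebi3_KO, 946.4, 708.2 and 1071 in Il10_KO, and 1091.2, 1395.2 and 1591.2 in DKO, in the same order of batches. WT had the highest array of all, in batch 1, and Ebi3_KO the lowest, also in batch 1. In WT the batch 3 array was the lowest and in Ebi3_KO it was the highest, so the order of the 2 genotypes turned over between batches. The mean signal was 2102.4 ± 999 (SD, n = 3) on the WT arrays, 1198.2 ± 818.2 on those of Ebi3_KO, 908.5 ± 184.3 on those of Il10_KO and 1359.2 ± 251.9 on those of DKO. Because these are bulk samples, fewer cells with a transcript and less transcript per cell cannot be told apart, here and for every gene that follows.

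The spread of Gzmb was wide in WT and Ebi3_KO and near that of similar probe sets in the other genotypes. The highest WT array was 2.86-fold above the lowest, and the ratio was 3.58-fold in Ebi3_KO, 1.51-fold in Il10_KO and 1.46-fold in DKO. On the log2 scale WT had an SD of 0.764, Ebi3_KO of 0.928, Il10_KO of 0.299 and DKO of 0.272. Among 3156 tested probe sets of similar mean log2 value (within 0.5), 92.7% had a smaller SD than Gzmb in WT and 94.2% in Ebi3_KO, against 48.8% in Il10_KO and 43.2% in DKO. The wide spreads rested on the batch 3 arrays: without that array the SD was 0.351 in WT and 0.38 in Ebi3_KO, and without the batch 2 array it was 1.06 and 1.28. With 1 array left out the SD was 0.124 to 0.412 in Il10_KO and 0.132 to 0.379 in DKO, lowest without the batch 2 array of Il10_KO and the batch 1 array of DKO. With 3 arrays a group the difference in spread between genotypes was not tested.

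Gzmb was lower in each knockout than in WT by the group means, and no difference passed the test. The log2 difference from WT was -1.09 ± 0.449 (SE) in Il10_KO, -0.88 ± 0.449 in Ebi3_KO and -0.51 ± 0.449 in DKO, each with an adjusted p of 1 in limma. With a batch term the adjusted p-values were 0.61, 0.91 and 0.77. Within batches 1, 2 and 3 the Il10_KO difference was -1.68, -1.59 and -0.0012, so the batch 3 pair was level. The 3 Il10_KO arrays all lay below the 3 WT arrays, but the highest of the former, 1071, and the lowest of the latter, 1071.9, were nearly equal; 2.74% of tested probe sets were lower in Il10_KO without overlap. The Ebi3_KO difference was -2.33, -1.3 and 0.98 within the batches, and that of DKO was -1.47, -0.63 and 0.56. Without batch 3 the fitted differences were -1.63 in Il10_KO, -1.81 in Ebi3_KO and -1.05 in DKO. Without batch 1 they were -0.79, -0.16 and -0.034.

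DKO stood above Il10_KO on all arrays for Gzmb, 1091.2 to 1591.2 against 708.2 to 1071, as 2.19% of tested probe sets did without overlap. That difference was 0.57 ± 0.449 (SE, limma, adjusted p = 1), and 0.2, 0.96 and 0.56 within the batches. The interaction, which asks whether the DKO value departs from the sum of both single knockouts, was 1.46 ± 0.635 for Gzmb (limma, adjusted p = 1). It was 2.53, 2.26 and -0.41 within batches 1, 2 and 3, positive in 2 of 3 batches. Of all tested probe sets 1.28% had an unadjusted interaction p under 0.05, and 0 passed after adjustment in limma, with batch in the model or without it.

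**Figure D1:**
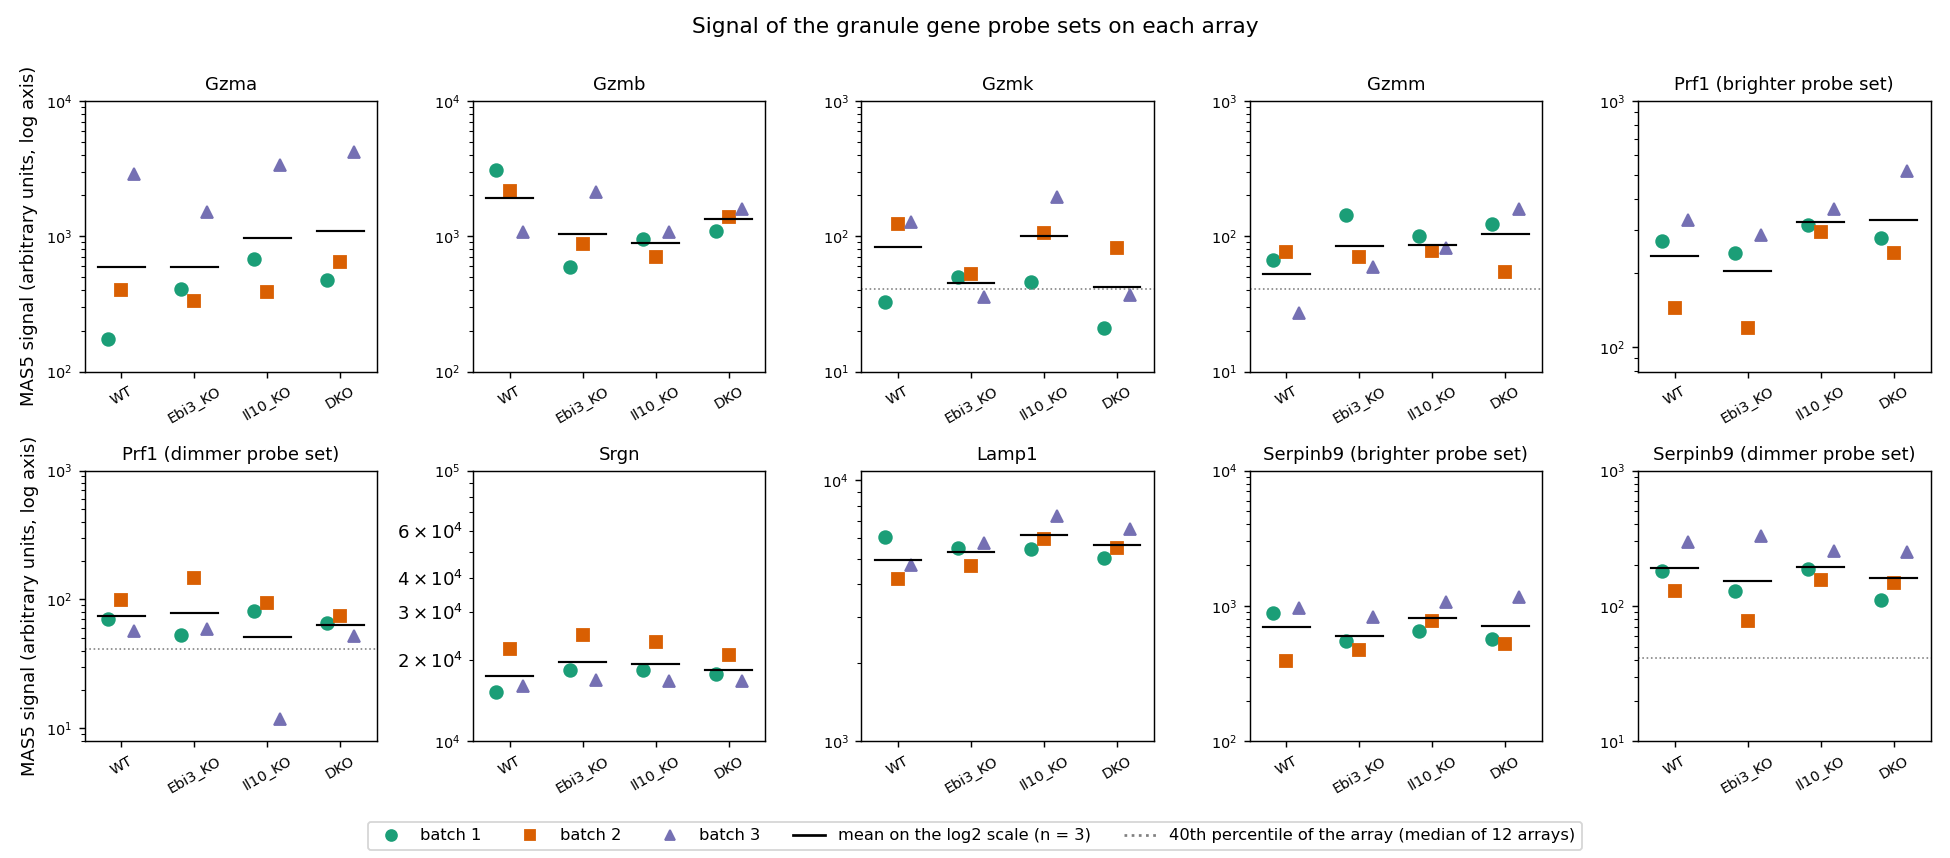
MAS5 signal (arbitrary units, log axis) of the 10 probe sets on each of the 12 arrays, by genotype, with shape and colour for the labelled batch, the mean of 3 arrays on the log2 scale as a bar and the 40th percentile of the arrays as a dotted line where it falls in range. Gzma is 1518.3 to 4152.7 on the batch 3 arrays and 173 to 677.1 on the others, and the Gzmb arrays of WT spread from 1071.9 to 3066.5.

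Gzma, a granzyme with trypsin-like specificity that NK cells carry in quantity, separated the batches and gave no genotype call. Its signal in batches 1, 2 and 3 was 173, 401.2 and 2875.1 in WT, 404.2, 332.5 and 1518.3 in Ebi3_KO, 677.1, 389.8 and 3341.5 in Il10_KO, and 476.2, 643.2 and 4152.7 in DKO. The batch 3 array was the highest of its genotype in 4 of 4 genotypes, with no overlap with the other batches. The groups of 3 arrays overlapped between all genotypes. Gzma was 0.85 ± 1.09 (SE) higher in DKO than in WT, 0.86 ± 1.09 higher in DKO than in Ebi3_KO and 0.68 ± 1.09 higher in Il10_KO than in WT on the log2 scale, with an adjusted p of 1 in limma for each. With batch in the model the SE was 0.32 and the adjusted p-values in limma were 0.535, 0.935 and 0.662. Within the batches DKO exceeded WT by 1.36, 0.65 and 0.53 and exceeded Ebi3_KO by 0.23, 0.91 and 1.44. The fitted values without batch were -0.11 and -0.1 when the batch 3 array of DKO was left out, a fit in which WT and Ebi3_KO keep their batch 3 arrays.

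Gzmk and Gzmm, granzymes with trypsin-like and methionine-directed specificity, were read near the limit of the filter. The Gzmk signal passed the 40th percentile on 6 of 12 arrays. It was 32.6, 122.3 and 127.5 in WT, 49.9, 52.5 and 35.3 in Ebi3_KO, 45.8, 105.4 and 195.2 in Il10_KO, and 21, 81.7 and 37.1 in DKO. Gzmk in Ebi3_KO lay inside the WT range, and the 12 arrays ran from 21 to 195.2, the lowest of them below the filter. The Gzmk difference was -0.66 ± 0.523 (SE) in Ebi3_KO and -0.74 ± 0.523 in DKO against WT, and -0.97 ± 0.523 in DKO against Il10_KO (limma, adjusted p = 1). Within the batches Gzmk in DKO differed from Il10_KO by -0.68, -0.3 and -1.91. The Gzmm signal passed the 40th percentile on 11 of 12 arrays, all but the batch 3 array of WT, and was 66.2, 76 and 26.9 in WT, 143.2, 70.5 and 59.1 in Ebi3_KO, 100.8, 77.3 and 82.5 in Il10_KO, and 122.6, 54.7 and 158.6 in DKO. Gzmm was above all WT arrays on the 3 Il10_KO arrays, by a margin of 77.3 against 76 at the nearest, and 3.14% of tested probe sets were higher there without overlap. Its log2 difference from WT was 0.53 ± 0.421 in Ebi3_KO, 0.54 ± 0.421 in Il10_KO and 0.76 ± 0.421 in DKO, and none passed (adjusted p = 1 in limma). With batch in the model the adjusted p-values in limma were 0.921, 0.76 and 0.622. Within batches 1, 2 and 3 Gzmm differed by 0.92, -0.085 and 0.75 in Ebi3_KO, by 0.49, 0.019 and 1.13 in Il10_KO and by 0.73, -0.36 and 1.93 in DKO, so batch 2 was near level or below. With 1 array left out, with or without a batch term, the fitted values ran from 0.2 to 0.91, 0.22 to 0.92 and 0.32 to 1.14. The first 2 lows came without the batch 3 array of WT and the last without that of DKO.

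Perforin, which forms the pore through which granzymes enter a target, was read by 2 probe sets. The brighter was above the 40th percentile on 12 of 12 arrays, and its signal was 270.2, 144.1 and 328 in WT, 240.8, 119.3 and 285.3 in Ebi3_KO, 312.6, 294.5 and 365.2 in Il10_KO, and 278.1, 240.8 and 519.9 in DKO. Its lowest array was that of batch 2 and its highest that of batch 3 in each genotype. This Prf1 value was higher in DKO than in Ebi3_KO by 0.64 ± 0.393 (SE), with 0.19, 0.9 and 0.82 within the batches, and did not pass (limma, adjusted p = 1). With batch in the model the SE was 0.231 and the adjusted p in limma was 0.935. Against WT the brighter Prf1 differed by 0.43 ± 0.393 in Il10_KO and 0.45 ± 0.393 in DKO, and neither passed. Within the batches these differences were 0.2, 0.94 and 0.15 in Il10_KO, and 0.039, 0.67 and 0.63 in DKO. The dimmer read 11.9 to 146.3 and lay above the 40th percentile on 11 of 12 arrays. The dimmer was below 0 where the brighter was above it: -0.39 ± 0.487 in Il10_KO and -0.17 ± 0.487 in DKO against WT, and -0.23 ± 0.487 in DKO against Ebi3_KO (limma, adjusted p = 1 for each). These 3 values turned above 0 when single arrays were left out, to 0.19, 0.043 and 0.15 at most. The probe sets, both annotated to Prf1, disagreed over batches as well: from batch 2 to batch 3 the brighter was higher by 0.89 ± 0.2 and the dimmer was lower, at -0.98 ± 0.312.

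Serglycin is the proteoglycan that holds granzymes and perforin in the granule, and many other blood cells also make it. Srgn and Lamp1 had the narrowest fold ranges of the members. Among 288 tested probe sets of similar mean log2 value, 65.6% had a smaller SD than Srgn in WT and 67.7% in Ebi3_KO. The share was 60.1% in Il10_KO and 39.6% in DKO. For Lamp1 the shares among 1155 such probe sets were 45%, 16%, 26.4% and 22.3%, in the same order of genotypes. The Srgn signal was 15192, 21892.9 and 16012.2 in WT, 18353.6, 24670.7 and 16828.8 in Ebi3_KO, 18323.3, 23224.9 and 16686.8 in Il10_KO, and 17790, 20922 and 16760.7 in DKO. The batch 2 array was the highest of each genotype, and the range over all 12 arrays was 1.62-fold. Srgn differed from WT by 0.17 ± 0.2 (SE) in Ebi3_KO and 0.14 ± 0.2 in Il10_KO (adjusted p = 1 in limma). With batch in the model the adjusted p-values in limma were 0.921 and 0.786. With 1 array left out the 2 Srgn differences ran from 0.0092 to 0.33 and from 0.0019 to 0.3, both lowest without the batch 2 array of the knockout.

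Lamp1, a heavily glycosylated protein of lysosome and granule membranes that appears on the cell surface after degranulation, had a range of 1.73-fold over all arrays. Its signal was 6083.3, 4193.9 and 4742.8 in WT, 5530, 4690.9 and 5760.7 in Ebi3_KO, 5452.4, 5971.1 and 7275.4 in Il10_KO, and 5054.1, 5502.4 and 6537.5 in DKO. The WT array of batch 1 was the highest of its batch, while in batches 2 and 3 the WT array was the lowest. Lamp1 differed from WT by 0.32 ± 0.194 (SE) in Il10_KO, with -0.16, 0.51 and 0.62 within the batches, and by 0.2 ± 0.194 in DKO, and neither passed (adjusted p = 1 in limma). With batch in the model the adjusted p-values in limma were 0.658 and 0.761.

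Serpinb9, the serpin that inactivates granzyme B in the cytosol of the cell that carries it, was read by 2 probe sets. The brighter gave 890.1, 390 and 967.6 in WT, 552.8, 473.7 and 829.4 in Ebi3_KO, 657.6, 767.5 and 1061.6 in Il10_KO, and 566, 527.4 and 1173.3 in DKO. The dimmer gave 181.8, 128.6 and 296.6 in WT, 127.9, 77.4 and 330.4 in Ebi3_KO, 188.7, 154.5 and 253.4 in Il10_KO, and 110, 146.8 and 249.4 in DKO. The batch 3 array was the highest of its genotype for both Serpinb9 probe sets in all 4 genotypes, and the genotypes overlapped.

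Over the 10 probe sets the genotype contrasts gave no call. Limma called 0 of 10 in each of the 6 contrasts and in the test for any genotype difference, with batch in the model or without it. At an unadjusted p under 0.05 without the batch term the count was 1 of 10, Gzmb, in Il10_KO against WT (1.98% of all tested probe sets) and in the interaction. It was 0 of 10 in Ebi3_KO against WT (1.41%), DKO against WT (2.14%), DKO against Ebi3_KO (1.39%) and DKO against Il10_KO (1.24%). With a batch term the count was 0 of 10 in Ebi3_KO against WT (5.31%), 1 in Il10_KO against WT (7.68%), 1 in DKO against WT (8.25%), 2 in DKO against Ebi3_KO (4.95%), 1 in DKO against Il10_KO (3.49%) and 1 in the interaction (3.94%). Few probe sets of any kind were called: without the batch term 0.0032% of the 31235 tested in Ebi3_KO against WT, 0.0064% in Il10_KO against WT, 0.0096% in DKO against WT, 0.0064% in DKO against Ebi3_KO and 0.0032% in DKO against Il10_KO. With batch in the model these shares were 0.0032%, 0.0384%, 0.0416%, 0.0192% and 0.0032%, and the test for any genotype difference called 0.0096% without the batch term and 0.0416% with it. The members were above 0 in 4 of 10 cases in Ebi3_KO, 8 of 10 in Il10_KO and 6 of 10 in DKO against WT, with medians of -0.102, 0.222 and 0.0471, beside -0.028, -0.000643 and 0.00919 over all tested probe sets. The shares of all tested probe sets above 0 in these 3 contrasts were 45.7%, 49.9% and 51.2%. Of the 10 tested NK cell genes 5 were above 0 in Ebi3_KO against WT (median 0.0182), 10 in Il10_KO (0.472) and 6 in DKO (0.685). In each of these contrasts 0 of the 10 were called. Their summed signal was 1206 to 8410.2 in WT, 1626.1 to 7035.6 in Ebi3_KO, 1665.4 to 13245.1 in Il10_KO and 1812 to 13176.4 in DKO, and the part of these cells in the members' values was not tested. The 3 comparisons share the WT arrays. The SE of a member difference ran from 0.194 (Lamp1) to 1.09 (Gzma), and from 0.1 to 0.411 with batch in the model. With batch it was 0.1 for Srgn, 0.151 for Lamp1, 0.231 for the brighter Prf1, 0.369 for Gzmm and 0.395 for Gzmk in the contrasts of 2 genotypes.

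**Figure D2:**
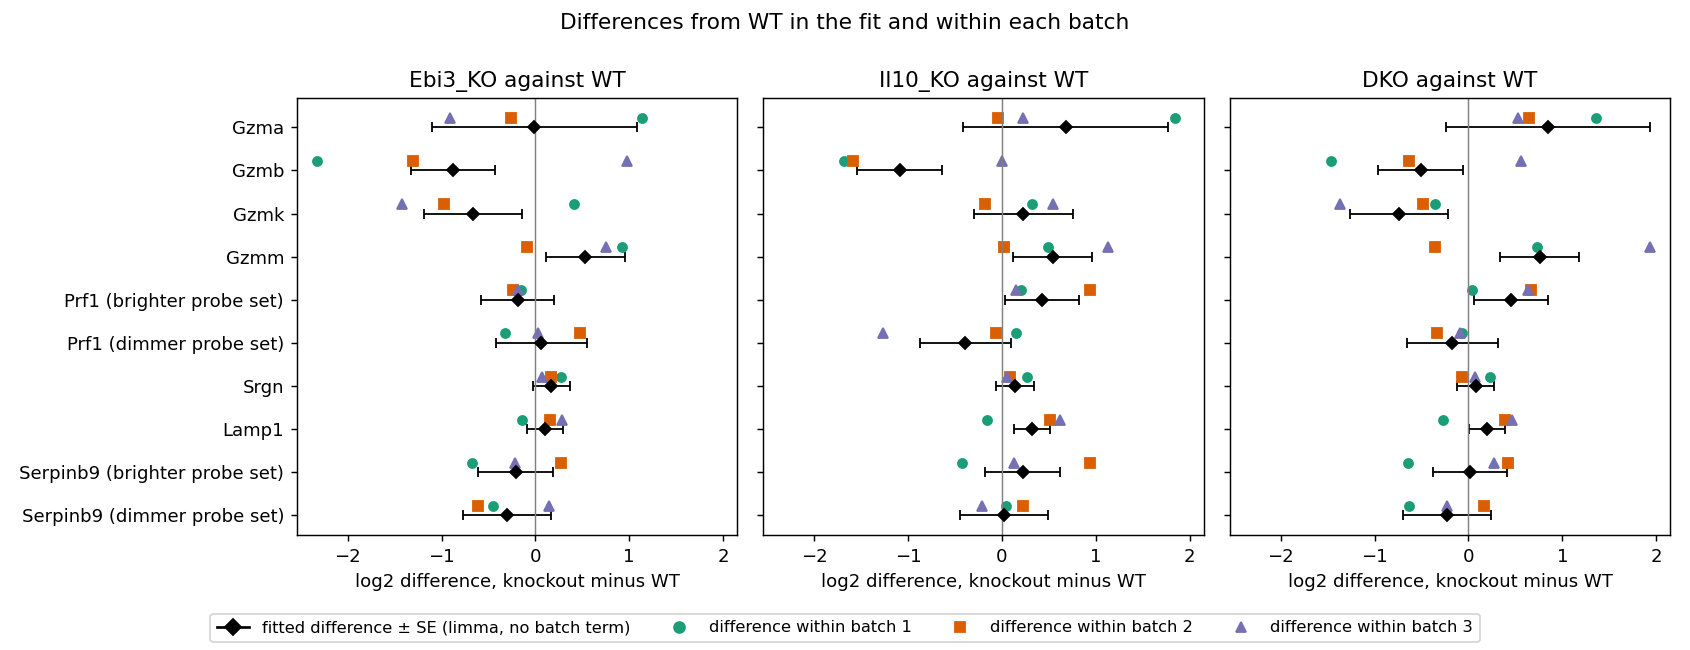
Log2 difference of each knockout from WT for the 10 probe sets, as the fitted value with its SE (black, limma without a batch term) and as the difference within each labelled batch (coloured symbols). The Gzmb difference in Ebi3_KO runs from -2.33 in batch 1 to 0.98 in batch 3, and no fitted difference passed the test.

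The other genes of the granule pathway gave no genotype call either. Of 6 further granzymes on the array 1 was tested, Gzmc, and the other 5 (Gzmd, Gzme, Gzmf, Gzmg and Gzmn) read between 0.5 and 43.3 and fell below the filter. Limma called 0 of 12 granule cargo genes, 0 of 21 genes of granule biogenesis and release, 0 of 6 clade B serpins and 0 of 26 regulators of cytotoxic genes, in each contrast and in both fits. The smallest p among the biogenesis genes in Il10_KO against WT was that of Igf2r, the receptor that carries newly made lysosomal enzymes, at -0.9 ± 0.258 (SE, limma, adjusted p = 1, or 0.371 when batch was a term). Igf2r also read -0.6 in Ebi3_KO and -0.65 in DKO against the same WT arrays. Among the cargo genes it was Cst7, cystatin F, an inhibitor of the cathepsins that activate granzymes, at 0.73 ± 0.27 in Il10_KO (limma, adjusted p = 1, or 0.376 when batch was a term). Among the regulators in DKO against Ebi3_KO it was Runx3, a transcription factor of the cytotoxic lineage, at 0.69 ± 0.236 (limma, adjusted p = 1). The 6 tested clade B serpins, relatives of Serpinb9, were above 0 in Il10_KO against WT with a median of 0.424, none called, where 49.9% of all tested probe sets were above 0, and 3 of 6 were above 0 in DKO. Among these 6, Serpinb8, Serpinb2 and Serpinb5 reached the 40th percentile on 5, 3 and 4 of 12 arrays. The 10 tested NK cell genes were above 0 in the same contrast with a median of 0.472, also none called, and their part in the serpin values was not tested.

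By Pearson r, the measure used for the choice, the gene whose log2 values over the 12 arrays were most like those of Gzmb was Prdm1, which encodes Blimp-1, a transcription factor of effector Tregs and terminally differentiated lymphocytes (r = 0.862, and 0.91 after genotype and batch means were removed). The Prdm1 signal was 930.1, 641.8 and 578.6 in WT, 443.8, 400.3 and 713.1 in Ebi3_KO, 587.3, 499.5 and 647.9 in Il10_KO, and 522.2, 645.9 and 604.4 in DKO. As for Gzmb, the highest array was WT batch 1, the WT batch 3 array was the lowest of WT, and the Ebi3_KO batch 3 array was the highest of Ebi3_KO. The next 4 were E2f3 (r = 0.853), Crip3 (0.852), AU041480 (0.847) and Lrrcc1 (0.834), and Crip3 and AU041480 read no more than 76.9 on any array. The order among these 5 was not fixed: E2f3 had the highest Spearman rho, 0.909 against 0.79 for Prdm1, and Lrrcc1 the highest r after genotype and batch means were removed, 0.95. These values describe 12 arrays that share batches and genotypes, and were picked as the highest among all named genes tested. Prdm1 itself did not pass in any genotype contrast. The other members did not follow Gzmb: their r with it ran from -0.389 (Srgn) to 0.329 (the dimmer Serpinb9), with -0.0156 for Gzma and 0.0178 for the brighter Prf1.

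**Figure D3:**
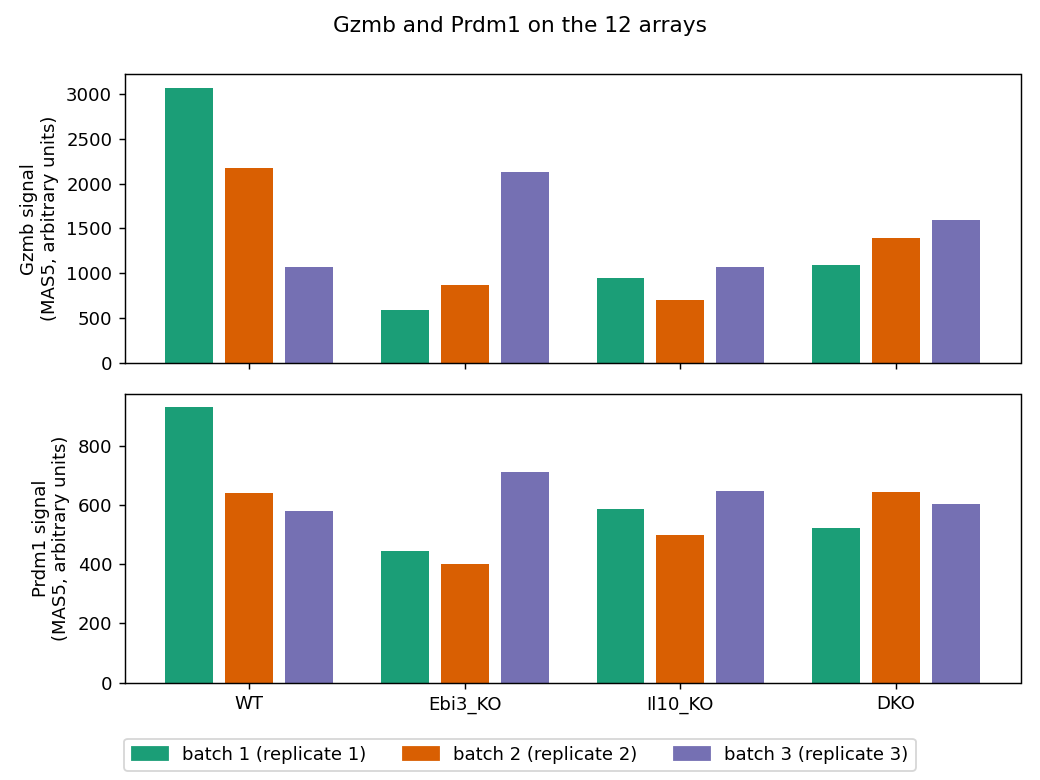
MAS5 signal (arbitrary units, linear axes from 0) of Gzmb and Prdm1 on each of the 12 arrays, grouped by genotype, with 1 bar per array coloured by batch. In WT both genes are highest in batch 1 (3066.5 and 930.1) and in Ebi3_KO both are highest in batch 3 (2129.3 and 713.1).

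The labelled batch moved several members, as it moved much of the array. In the model with genotype and batch limma called 5 of 10 member probe sets for any batch difference, beside 41.8% of all tested probe sets, a share near that of the members. The 5 were Gzma (adjusted p = 1.95e-05), Srgn (0.00213), the brighter Prf1 (0.00894) and both of Serpinb9 (0.00681 for the brighter and 0.00505 for the dimmer). Gzmb was not among them (adjusted p = 0.774), nor were Gzmk (0.0699), Gzmm (0.364), the dimmer Prf1 (0.0568) and Lamp1 (0.286).

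Gzma had the largest batch difference of the 10 probe sets. In batch 3 it was 2.78 ± 0.277 (SE) higher than in batch 1, a fold of 6.85 (limma, adjusted p = 1.75e-05), and 2.65 ± 0.277 higher than in batch 2 (adjusted p = 4.44e-05). The mean signal was 2971.9 ± 1103.5 (SD, n = 4) in batch 3, 441.7 ± 137.7 in batch 2 and 432.6 ± 208.1 in batch 1. Serpinb9 rose with it: the dimmer probe set was 0.83 ± 0.23 above batch 1 (adjusted p = 0.015) and 1.07 ± 0.23 above batch 2 (adjusted p = 0.00512), in 4 of 4 genotypes and without overlap. The first of these calls was lost without the batch 3 array of Ebi3_KO (adjusted p = 0.0752) and without the batch 1 array of DKO (0.0684). The brighter Serpinb9 probe set was 0.91 ± 0.198 above batch 2 (adjusted p = 0.00557) and 0.6 ± 0.198 above batch 1 (adjusted p = 0.037), the last a call that 8 of 17 other settings lost (adjusted p = 0.0027 to 0.144). Those were the fit without trend and the fits without the batch 3 array of any genotype or without the batch 1 array of Ebi3_KO, Il10_KO or DKO. The brighter Prf1 rose by 0.89 ± 0.2 from batch 2 to batch 3 (adjusted p = 0.00667), in 4 of 4 genotypes. The dimmer Prf1 fell over the same step (-0.98 ± 0.312, adjusted p = 0.0392), and 8 of 16 other settings lost that call (adjusted p = 0.0322 to 0.15). Those were the test without a filter and the fits without the batch 2 or batch 3 array of WT, Ebi3_KO or Il10_KO or without the batch 1 array of DKO.

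Srgn was highest in batch 2. It was 0.38 ± 0.0869 (SE) above batch 1 (limma, adjusted p = 0.00553) and fell by 0.45 ± 0.0869 from batch 2 to batch 3 (adjusted p = 0.00268), each in 4 of 4 genotypes and without overlap. The first of these was lost after quantile normalization, which took the difference from 0.38 to 0.18 (adjusted p = 0.0776), and in the fit without trend, where it was 0.38 (adjusted p = 0.0572). Gzmk was higher in batch 2 than in batch 1 on all arrays, 52.5 to 122.3 against 21 to 49.9, with a difference of 0.93 ± 0.342 that did not pass (adjusted p = 0.0573). It passed after quantile normalization (0.0202), without the batch 1 array of Ebi3_KO (0.019) and without the batch 3 array of Il10_KO (0.0486). Without overlap between the batches 9.56% of tested probe sets were higher in batch 2 than in batch 1, 10.5% higher in batch 3 than in batch 1, and 12.4% higher and 11% lower in batch 3 than in batch 2. Between batches 3 and 1 the calls were 3 of 10 members higher and 0 lower, beside 10.2% and 18.5% of all tested probe sets. Between batches 3 and 2 they were 4 higher and 2 lower, beside 11% and 9.98%, and between batches 2 and 1 they were 1 higher and 0 lower, beside 9.32% and 18.8%. The median of all tested probe sets was itself -0.176 from batch 1 to batch 2 and -0.156 from batch 1 to batch 3. After quantile normalization those medians were 0.0229 and 0.0373, and the share of calls that were higher went from 33.2% to 50.8% and from 35.5% to 52.2%.

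Markers of several other cell types, though not of all, moved with Gzma and Serpinb9 in batch 3. Of 10 tested NK cell genes 7 were called higher and 0 lower than in batch 1, with a median of 2.05, among them the receptor chain Klrd1 (2.36 ± 0.188, SE, limma, adjusted p = 3.79e-06) and the signalling adaptor Tyrobp (3.12 ± 0.249, adjusted p = 3.79e-06). The count and the median include Tyrobp and Fcer1g, which myeloid and mast cells also use. The other genes called were Klra8, Klre1, Klrc1 and Eomes. Klra7 (1.13, limma, adjusted p = 0.0578) and Klrk1 (0.66, adjusted p = 0.0746) were not called. The NK receptor Ncr1 passed the 40th percentile on 5 of 12 arrays, read 11.1 to 135.8, and averaged 93.7 in batch 3 against 43 and 33.4 in batches 1 and 2. It did not pass against batch 1 (0.64 ± 0.439, adjusted p = 0.304) or batch 2 (0.88 ± 0.439, adjusted p = 0.183). Of 12 tested myeloid genes 11 were higher. Of 9 mast cell and basophil genes 5 were: Cpa3 (3.62 ± 0.277, limma, adjusted p = 3.22e-06), Mcpt8, Fcer1a, Ms4a2 and Hdc. Not called were Kit (-0.49), Cma1 (0.41), Tpsb2 (0.15) and Mcpt2 (0.15). The mast cell proteases Mcpt1 and Mcpt4 stayed below the filter, at 1.1 to 50.7. The summed signal of 5 genes of effector CD8 T and NK cells was 7939.7 to 13043.6 in batch 3, against 5445.7 to 6840.4 on the other arrays, and 3 of 5 were called higher. The largest part of that sum was Klrg1, with means of 4963.7, 4269.4 and 6379 in batches 1, 2 and 3. Klrg1 was not called against batch 1 (0.3 ± 0.179, limma, adjusted p = 0.227). The sum of Cd8a and Cd8b1 was 554.6 to 916.2, 367.3 to 414.7 and 449.6 to 778.7 in batches 3, 2 and 1. Of 5 tested B cell genes 1 was called higher and 0 lower than in batch 1, with a median of -0.00798. The B cell sum was 2294.7 to 7427.9, 810.5 to 1868.7 and 2136.7 to 3986.7 in batches 3, 2 and 1. Of 6 plasmacytoid dendritic cell genes 2 were called higher and 0 lower (median 0.467), and of 5 conventional CD4 T cell genes 2 and 0 (0.199). The 1 tested gamma delta T cell gene was not called. The sum of 9 Treg and T cell genes was 50828.4 to 60924 in batch 3 and 67470 to 73504.7 on the other arrays. Of these 9 genes 0 were called higher and 5 lower than in batch 1 (Il2ra, Ctla4, Ikzf2, Cd3e and Cd4). Foxp3 (-0.19 ± 0.129, limma, adjusted p = 0.296), Tnfrsf18 (-0.071), Cd3d (0.011) and Cd3g (-0.035) were not called. Within batch 3 the NK sum without Tyrobp and Fcer1g was 3272.5 for WT, 1979.7 for Ebi3_KO, 3803.6 for Il10_KO and 4246.8 for DKO. The Ebi3_KO array was the lowest of batch 3 for Gzma, the brighter Prf1 and the brighter Serpinb9. It was the highest of batch 3 for the dimmer Prf1 (58.7) and the dimmer Serpinb9 (330.4). The part of these cells in the Gzma, Prf1 and Serpinb9 values was not tested.

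**Figure D4:**
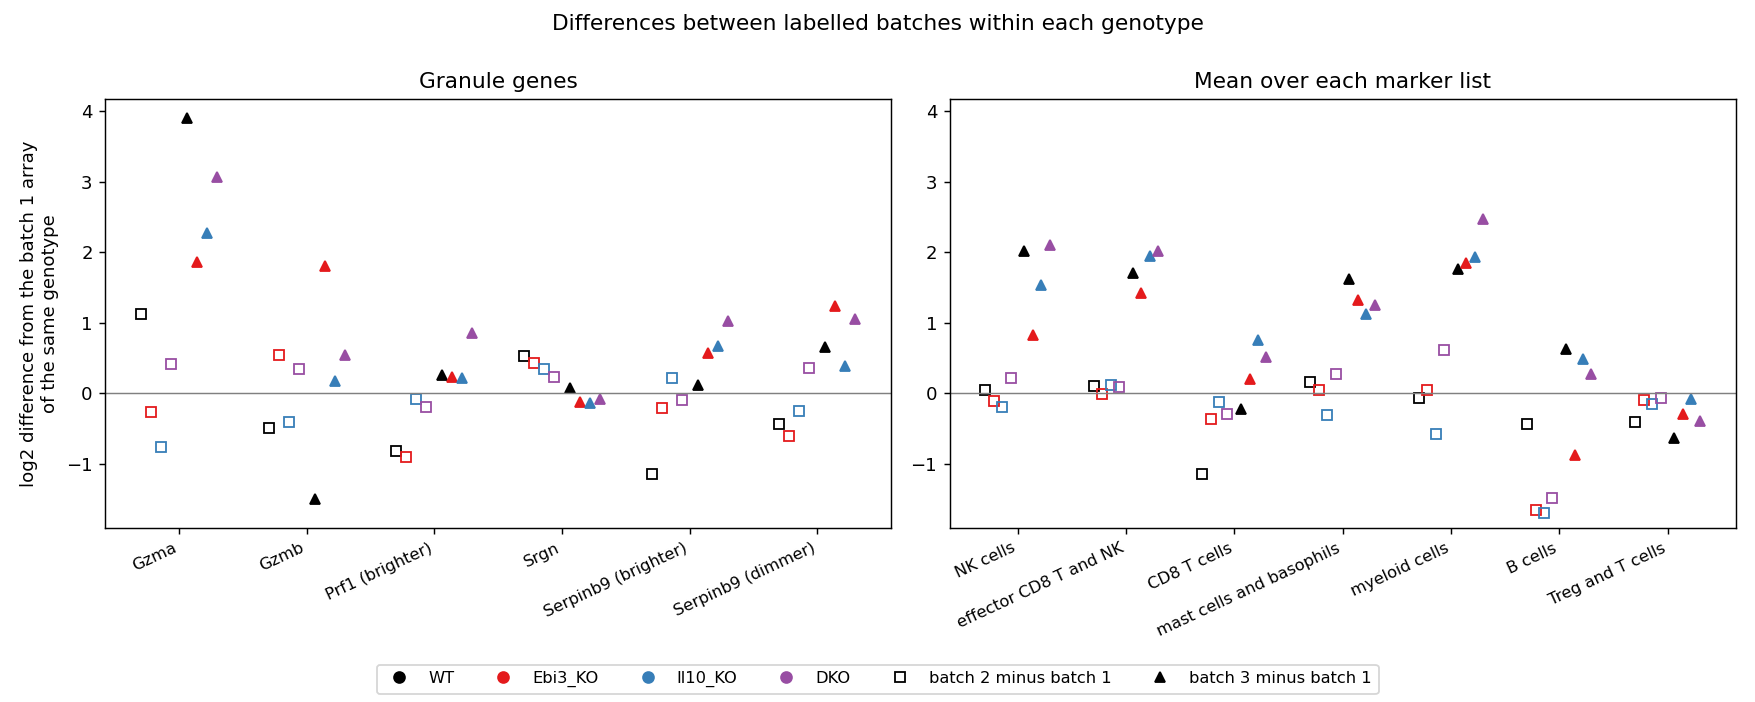
Log2 difference of each batch 2 array (open squares) and batch 3 array (filled triangles) from the batch 1 array of the same genotype, for 6 granule gene probe sets (left) and for the mean over each list of marker genes (right), coloured by genotype. Gzma rises by 1.86 to 3.91 in batch 3, and Gzmb goes from -1.5 in WT to 1.81 in Ebi3_KO. The NK, effector, mast cell and basophil, and myeloid marker means rise in batch 3 in all 4 genotypes.

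The other granule genes were also read between batches 3 and 1, where 10.2% of all tested probe sets were called higher and 18.5% lower. Of 12 cargo genes 5 were called higher and 0 lower than in batch 1, with a median of 0.595, including Ctsh (2.58 ± 0.289, SE, limma, adjusted p = 3.56e-05), Ctsc, the protease that activates granzymes (0.96 ± 0.107, adjusted p = 3.4e-05), and Nkg7, a granule membrane protein of NK and cytotoxic T cells (0.95 ± 0.175, adjusted p = 0.00124). The other cargo genes called were Ctsb (0.76) and Lgmn (1.2). Among those not called were Cst7 (-0.32), Ctsw (-0.1), Fasl (0.53) and Crtam (0.66). The part of other cells in the cargo values was not tested. Of 21 biogenesis genes 5 were higher and 2 lower, with a median of 0.088, and of 6 clade B serpins 2 were higher and 0 lower. Of 26 regulators 4 were higher and 5 lower, with Eomes, a transcription factor of NK and effector CD8 T cells, higher (1.26 ± 0.206, adjusted p = 0.000553). Gzmb gave 0.25 ± 0.356 between batches 3 and 1 (adjusted p = 0.632), with -1.5 in WT and 1.81 in Ebi3_KO.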

How the data were processed

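Total RNA of sorted Tregs was labelled with biotin by the Affymetrix 2-cycle protocol and hybridised to 12 arrays, per the labels. MAS5 and Partek 6.4 are listed in the submitters' processing notes. The table the authors deposited holds natural log values of MAS5 signal + 20, a scale found from the numbers: after exponentiation the trimmed mean (2% at each end) was 500 on every array. Log2 values had been planned for, so the natural log values were converted to log2, with no other normalization.

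Of 45101 probe sets the 64 controls were left out, and 31235 that reached the 40th percentile on 3 or more arrays were tested, among them all 10 members; 34945 carried 1 gene symbol. The 4 genotypes were fitted in 1 model without batch (limma 3.58.1 in R 4.3.3, lmFit and eBayes with trend, 8 residual degrees of freedom), with Benjamini-Hochberg adjustment over all tested probe sets and a threshold of 0.05. A fit with batch had 6 residual degrees of freedom and also gave the batch contrasts. The code was tested on simulated data. Alternatives were quantile normalization, an offset of 100, other filters, no trend, a random block, the compared groups alone, and arrays or batches left out.

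The labels make the replicate number the batch, so the numbers pair the samples: after genotype means were removed, same-numbered arrays correlated at 0.325 to 0.664 over 18 pairs, and 12 of 12 arrays matched best with their own number.

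The members and gene lists were chosen with earlier results of these data known. All members are named. For each list up to 3 genes of smallest p and up to 3 past the threshold in a comparison could be named, with the 5 genes most like Gzmb, Ebi3 and Il10; lists used the brightest probe set of a gene. Ncr1, Mcpt1, Mcpt4, Klrd1, Tyrobp, Cpa3, Eomes, Nkg7 and Foxp3 were named as known markers, after their values were seen. So were Klrg1 and further genes of the NK cell, mast cell and basophil, Treg and T cell, and cargo lists. Arrays give no counts, so their number limits the precision.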

Additional observations from a re-analysis of the deposited data

How the results depend on the processing

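Genotype gave 0 member calls in every one of the 35 alternative settings, so the fit with the replicate block (batch as a factor), in which the count also was 0, changed no call; the Gzmb difference in Il10_KO against WT was -1.09 there too (adjusted p = 0.61), and arrays of 1 batch had a consensus correlation of 0.461. The Gzmb SD of the WT arrays was 0.351 to 1.06 with 1 WT array left out (the same SD of the other genotypes, and the NK sum without its adaptors, were chosen after seeing the data), 0.79 after quantile normalization and 0.73 with an offset of 100. With 1 array left out Gzma ranged from -0.21 to 1.79 in Il10_KO against WT, from -0.11 to 1.96 in DKO against WT and from -0.1 to 1.52 in DKO against Ebi3_KO. The reversed values were -0.16 without the batch 1 array of WT and -0.21, -0.11 and -0.1 without a batch 3 array of a knockout, in fits without batch where WT or Ebi3_KO keep theirs. The dimmer Prf1 ranged likewise from -0.73 to 0.19 in Il10_KO against WT, from -0.36 to 0.043 in DKO against WT and from -0.53 to 0.15 in DKO against Ebi3_KO, with reversed values of 0.044 without batch 3 in the first and 0.063 without batch 2 in the last. Quantile normalization called 7 members by batch, adding Gzmk and the dimmer Prf1, and lost Srgn between batches 2 and 1 (0.18, adjusted p = 0.0776), as did the fit without trend (0.0572). The compared groups alone give no interaction, and Gzmb has 1 probe set, so neither alternative was run there. Signals near the 40th percentile (Gzmk, Gzmm and the dimmer Prf1) limit those values.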
